A study of Schizosaccharomyces pombe with 36 samples.

Results

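Loss of *pku70* was examined across the genome in fission yeast (*Schizosaccharomyces pombe*) cells with the *rnh201-RED* allele. The comparison used 8 of the 36 Pu-seq libraries of the study, 4 from *pku70-d* strains and 4 from *pku70+* strains. They were chosen by their sample labels, in the *rnh201* background whose counts over *pku70* show the deletion. Each set of 4 holds a Pol δ mutant strain (*cdc6-L591G*) and a Pol ε mutant strain (*cdc20-M630F*), once with the *RTS1* barrier off and once with it on. In the *pku70-d* strains the gene is replaced by a hygromycin cassette, and in the barrier-off strains *rtf1* is replaced by a nourseothricin cassette. All 8 strains share an h- mating type with *smt0*, the *RTS1* construct with 10 rDNA barrier repeats on chromosome II, a replaced native *RTS1*, *rnh201-RED*, *ade6-704*, *leu1-32* and *ura4-D18*, and were grown to log phase at 30 °C. The files analysed here hold 1 library per strain and polymerase, so replicate cultures of a condition were not analysed here, and the 4 pairs of libraries matched by polymerase and barrier state stand in for replicates where a test is given.

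The Ku heterodimer, of which Pku70 is a subunit, binds DNA ends, holds them for non-homologous end joining, limits resection and protects telomeres. *RTS1* arrests forks that approach it from one side when the Rtf1 protein is bound, and arrested forks restart by homologous recombination with Pol δ on both strands. Pu-seq counts the ribonucleotides that a mutant polymerase leaves behind. A canonical fork moving rightward uses Pol ε on the Watson strand and Pol δ on the Crick strand, so the 2 shares give the percent of forks that move rightward at a site.

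The labels were first checked against the counts. Counts over *pku70*, relative to the flanking sequence, lay between 0.00287 and 0.0145 in the 4 *pku70-d* libraries and between 0.851 and 0.967 in the 4 *pku70+* libraries, so the deletion is seen in every library labelled with it. Counts over *rtf1* lay between 0.0286 and 0.0946 with the barrier off and between 0.711 and 1.03 with it on. Depth ranged from 3304406 counts (*pku70+*, barrier on, Pol ε) to 30967258 (*pku70-d*, barrier off, Pol ε). One library stood apart: the SD over windows of the log2 ratio between strands was 0.988 in the *pku70+* barrier-off Pol ε library, against 1.5 to 1.6 in the other 3 Pol ε libraries. The percent of rightward forks in its pair had an SD of 17.5 points over 4192 windows of 3 kb, against 20.3 to 21.3 in the other 3 pairs. Fork directions from barrier-off pairs are therefore also given after each pair was put on a common spread ("scaled" below). In 8 *rnh201-d* libraries labelled with the same *pku70*, barrier and polymerase states, used here only for comparison, the libraries labelled *pku70-d* kept counts over *pku70* (0.664 to 0.782 of the flanks, against 0.736 to 1.03 in *pku70+*). Their counts show no deletion. The paper's strain list gives *rnh201-d* strains of this kind with a *leu2* marker at *pku70*. Counts cannot show whether a marker disrupts the gene while its sequence stays. The labels of the 2 *pku70+* barrier-off libraries among these 8 also do not name the rDNA repeats of the construct, which those of the other 6 do.

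Between 20 and 100 kb from the ends of chromosomes I and II, fewer forks moved towards the telomere in *pku70-d* than in *pku70+*, more so from 20 to 50 kb than from 50 to 100 kb. At 20 to 50 kb (400 bins of 300 bp) with the barrier off, 50.04% of forks moved towards the end in *pku70+* and 46.6% in *pku70-d*. With the barrier on, the values were 50.6% and 48.0%. The differences were -3.42 and -2.60 points, and -3.26 and -2.54 points when scaled. The difference was not even over the stretch. In 5-kb steps the 3 between 20 and 35 kb gave -1.54 to -0.19 points (barrier off) and -2.16 to -1.23 (barrier on), and the 3 between 35 and 50 kb gave -6.23 to -5.53 and -4.03 to -2.77. From 50 to 100 kb they were -1.16 points (barrier off) and -1.50 (barrier on), and from 100 to 200 kb -0.68 and 0.18 points. In the outermost 10 kb they were 3.99 and -0.22 points. With 2 pairs an exact sign-flip test cannot go below p = 0.5, which is the value it gave for both classes (two-sided). The mean difference of the 2 pairs was -3.01 ± 0.58 points at 20 to 50 kb and -1.33 ± 0.24 at 50 to 100 kb (SD, n = 2). In the *rnh201-d* libraries, whose *pku70* counts show no deletion, the same differences were -0.47 and -0.44 points at 20 to 50 kb and -3.61 and -3.15 at 50 to 100 kb. With 1 strain analysed per condition and polymerase, loss of *pku70* and any other difference between the strains cannot be told apart.

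**Figure D1:**
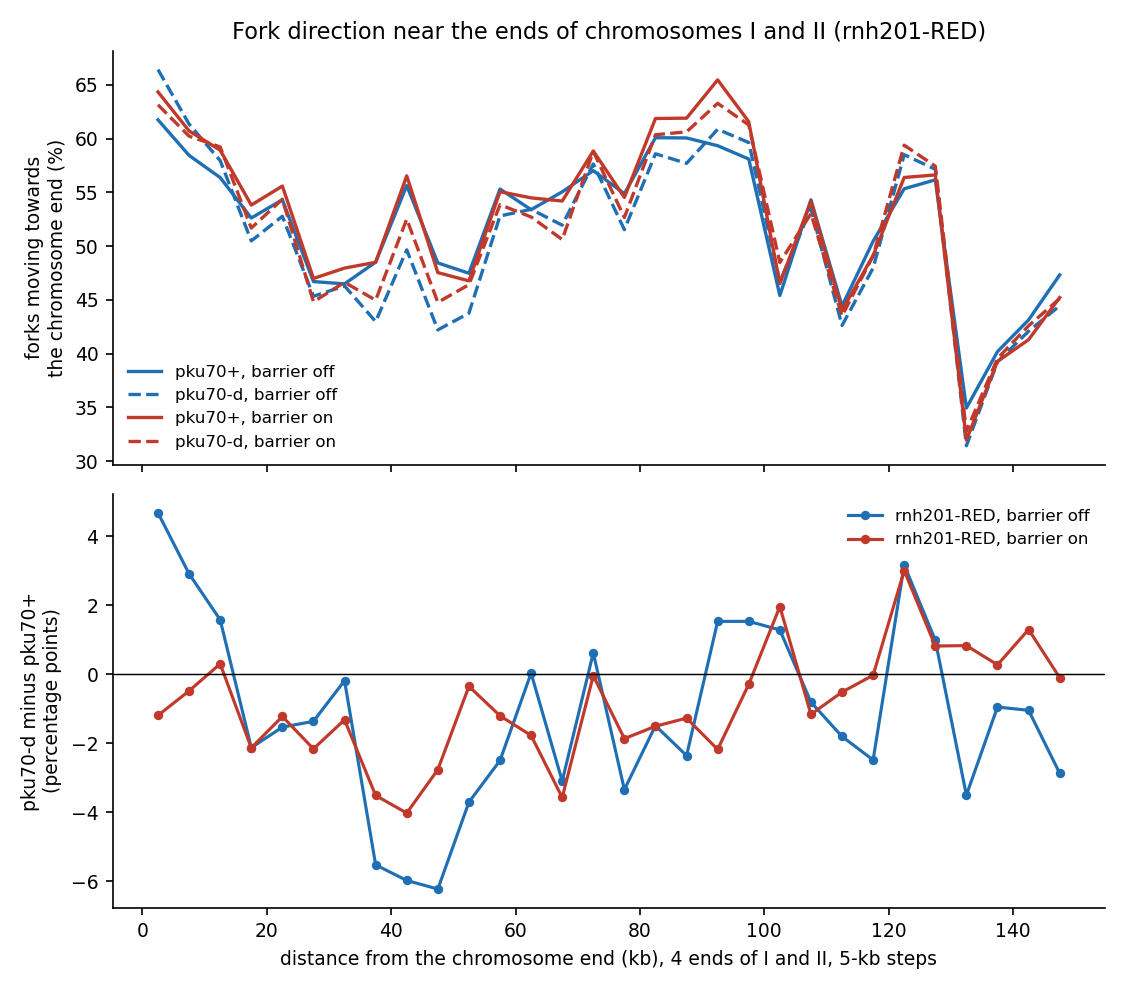
Percent of forks moving towards the chromosome end (top, *y* axis) and its difference between *pku70-d* and *pku70+* in percentage points (bottom) against the distance from the end in kb, in 5-kb steps over the 4 ends of chromosomes I and II. Solid lines are *pku70+*, dashed lines *pku70-d*, blue barrier off and red barrier on. Between 20 and 50 kb the means over the stretch differ by -3.42 points (off) and -2.60 points (on).

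The ends differed among themselves. The left end of chromosome II differed most at 20 to 50 kb, with 51.3% in *pku70+* and 44.7% in *pku70-d* with the barrier off, and 51.8% and 47.1% with it on. In the *rnh201-d* libraries the same stretch also differed, by -4.56 and -4.83 points. At the left end of chromosome I the differences were -2.80 and -2.12 points, at its right end -3.31 and -1.27, and at the right end of chromosome II -1.30 and -2.25. All 8 values from the 4 ends of I and II were thus below 0 at 20 to 50 kb, as were all 8 at 50 to 100 kb (-0.24 to -2.93). Closer in, from 10 to 20 kb, the left end of II was lower in *pku70-d* (-4.68 and -3.71 points) while its right end was not (5.13 and 0.53).

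On chromosome III, whose ends carry the ribosomal DNA arrays, the differences were above 0 in both barrier states near the ends, at 6.47 points (barrier off) and 2.36 (barrier on) within 10 kb and 5.75 and 0.23 at 10 to 20 kb. At 20 to 50 kb they were 1.24 and -0.16 points, and at 50 to 100 kb -1.16 and 0.03. The outermost annotated protein-coding genes lay at 28298 (*SPCP20C8.01C*) on the left and ended at 2436530 (*SPCC569.01C*) on the right, so no protein-coding gene is annotated within 10 kb of either end of III.

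**Figure D2:**
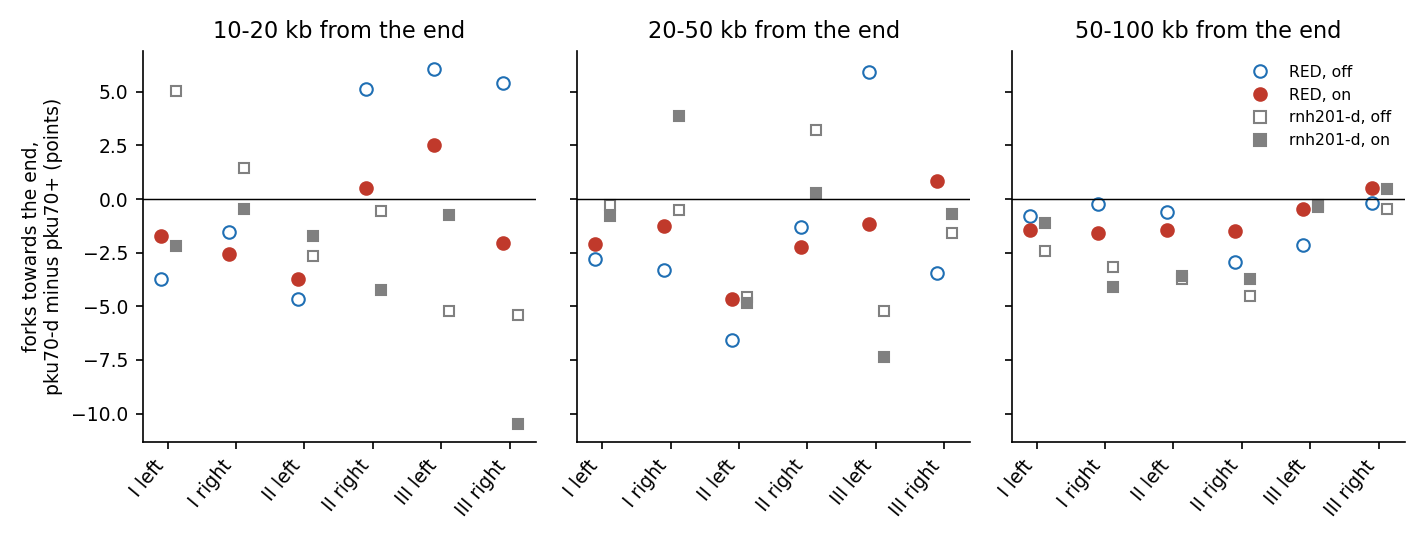
Difference between *pku70-d* and *pku70+* in the percent of forks moving towards each of the 6 chromosome ends, in percentage points, for 3 distance classes. Circles are *rnh201-RED* pairs and grey squares *rnh201-d* pairs, open with the barrier off and filled with it on. At 20 to 50 kb all 8 circles of chromosomes I and II lie below 0, and those of chromosome III lie on both sides.

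Subtelomeres share sequence, so a read can belong to several ends. In the reference, 52.5% of the 50-base words at 20 to 50 kb from the ends of I and II occurred more than once, against 7.86% at 50 to 100 kb, 83.8% at 0 to 10 kb and 95.1% at 0 to 10 kb on III. The differences were therefore recomputed over bins with under 10% of such words. At 20 to 50 kb, 174 of 400 bins remained, and the differences were -4.85 points (barrier off) and -2.41 (barrier on). Of these 174 bins, 95 lay at the right end of I (-3.76 and -1.33 points) and 68 at the left end of II (-6.63 and -4.53), and the left end of I and the right end of II kept too few for a value of their own. At 50 to 100 kb, 599 of 664 bins remained, with -1.39 and -1.56 points, and at the left end of II the 125 of 166 bins that remained gave 0.02 and -0.57 points. At 10 to 20 kb too few bins remained for a value, and values closer to the ends are uncertain for this reason.

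Window by window, edgeR's quasi-likelihood test called 0 of 4192 windows of 3 kb for a change in fork direction (0.0% of windows at an adjusted p of 0.05, with 90 at an unadjusted p under 0.05). Without the *pku70-d* or the *pku70+* barrier-on Pol ε library the count was 118 or 82. On I and II an unadjusted p under 0.05 was reached by 3 of 14 windows at 10 to 20 kb, 7 of 40 at 20 to 50 kb and 3 of 66 at 50 to 100 kb. All of these had fewer forks towards the end, but windows of the same strains are not independent. A second test, limma on the log odds of rightward forks after scaling, was added after the data were seen and called 137 of 4192 windows (3.27%), 61 higher (1.46%) and 76 lower (1.81%). In it, 8 of 40 windows at 20 to 50 kb from the ends of I and II and 5 of 66 at 50 to 100 kb were called, against 57 of 2041 beyond 1000 kb. Within 10 kb of these ends 2 of 13 windows were called, 1 with more forks towards the end and 1 with fewer. At 10 to 20 kb 1 of 14 was called, with fewer. All 13 windows called between 20 and 100 kb had fewer forks towards the end in both barrier states. Their differences were -11.6 to -4.39 points with the barrier off and -9.58 to -2.73 with it on. In 8 of the 13 at most 5.46% of the sequence was repeated, and in the other 5 it was 62.0% to 93.3%. In the *rnh201-d* libraries, whose *pku70* counts show no deletion, 12 of the 13 had the same sign. Of the 13, 7 passed edgeR's test there with that sign. That test called 620 of 4192 windows in the *rnh201-d* libraries (14.8%), 230 higher (5.49%) and 390 lower (9.3%).

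The 8 windows with little repeated sequence overlap named genes at 3 of the 4 ends of I and II. At the left end of II, 39 to 48 kb in, 3 adjacent windows cover *ght7* (a hexose transporter), the urea transporter gene *SPBPB8B6.02C*, the transcription factor gene *grt1* and *fah1* (an acetamidase). Rightward forks over *ght7*, which move away from this end, rose from 52.6% to 63.9% with the barrier off and from 53.5% to 60.7% with it on (limma, adjusted p = 5.44e-04). Over *SPBPB8B6.02C* they rose from 38.2% to 48.4% and from 41.2% to 46.7% (adjusted p = 5.64e-04). At the right end of II, rightward forks move towards the telomere, and 3 windows cover *pan5* (a 2-dehydropantoate 2-reductase), *gal7*, *tgd1* and *gal10*, of which *gal7* and *gal10* encode enzymes of galactose use. Over *pan5* rightward forks fell from 70.4% to 60.3% and from 68.2% to 64.8% (adjusted p = 1.34e-04), and over *gal7* from 66.5% to 57.2% and from 65.1% to 61.7% (adjusted p = 6.75e-04). At the left end of I, *ght3*, a gluconate transporter gene 81 kb in, rose from 30.3% to 34.7% and from 24.0% to 29.9% (adjusted p = 0.00854). In the next window, which also reaches *shu1* (a haem-binding cell surface protein), they rose from 28.2% to 35.1% and from 28.8% to 32.2% (adjusted p = 0.00998). Neither test says more than that these windows differ between single strains.

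The terminal windows themselves did not move together. Over *tlh1*, a RecQ-type helicase gene at the left end of I, rightward forks were 25.6% in *pku70+* and 28.8% in *pku70-d* with the barrier off, and 25.2% and 28.2% with it on (limma, adjusted p = 0.014). Over *tlh2*, its near-identical relative at the right end of II, they were 76.7% and 83.4%, then 84.3% and 83.6% (adjusted p = 0.91). Reads from these copies cannot be assigned to one end with certainty.

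The share of Pol δ averaged over both strands was higher in *pku70-d* at the tips. Pol δ's share was 1.63 points (barrier off) and 8.23 points (on) higher within 10 kb of the ends of I and II, and 9.14 and 11.4 points higher on III. At 20 to 50 kb of I and II the differences were 0.094 and 1.92 points. No test was made of these shares. The test of Pol ε over Pol δ in 3-kb windows called 58 of 4193 (1.38%), 38 with more Pol ε (0.906%) and 20 with less (0.477%) in *pku70-d*. None of the 19 windows within 10 kb of an end was called, and 1 of the 60 at 20 to 50 kb was, a gene-free stretch of III (log2 0.60, SE 0.11, adjusted p = 0.024). This count depends on single libraries. It was 0 without any 1 of the 4 Pol ε libraries, 606 without the *pku70-d* and 592 without the *pku70+* barrier-on Pol δ library, and 0 once GC content entered the fit (799 at an unadjusted p under 0.05). Among the named windows with more Pol ε were those of *pan3* (poly(A) shortening; log2 0.67, SE 0.12) and of *leo1* (a Paf1 complex subunit; log2 0.57, SE 0.11), and with less that of *spp42* (a U5 spliceosome protein; log2 -0.53, SE 0.10), each at adjusted p = 0.024.

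Of these calls the one with the largest difference lay at *mat1*, the expressed mating-type locus, where switching starts from an imprint that depends on fork direction. All 8 strains carry *smt0*, a deletion beside *mat1* that abolishes this imprint. The window at 2118001 to 2121000 on chromosome II had less Pol ε relative to Pol δ in *pku70-d* (log2 -1.27, SE 0.23, adjusted p = 0.024). Over its central 6 bins, Pol δ counts on the Watson strand were 51.3 and 59.98 CPM (counts scaled to a common library total) per bin in *pku70+* (barrier off and on) and 121 and 123 in *pku70-d*. On the Crick strand they were 32.0 and 2.85 in *pku70+* against 1.03 and 1.16 in *pku70-d*. The Crick value of the *pku70+* barrier-off Pol δ library thus stood well above the other 3, although all 4 strains carry the same mating-type labels. Rightward forks over these bins were 35.8% in that pair and 6.55%, 8.38% and 7.85% in the other 3. With the barrier on, where the Crick values are 2.85 and 1.16, the Pol δ level was 62.8 and 124 CPM per bin, a log2 difference of 0.98, and the Pol ε level 29.7 and 17.1, a difference of -0.79.

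The total count level differed between *pku70-d* and *pku70+* over much of the genome. Of 4193 windows, 2211 (52.7%) were called by edgeR, 1059 higher (25.3%) and 1152 lower (27.5%) in *pku70-d*. With the barrier off alone the fit called 50 (1.19%), 16 higher (0.382%) and 34 lower (0.811%). With it on alone it called 1204 (28.7%), 567 higher (13.5%) and 637 lower (15.2%). Without the *pku70-d* or the *pku70+* barrier-on Pol ε library the count was 1263 or 1255. The largest single change was the deletion itself: the window over *pku70* held 206, 194, 214 and 174 CPM in the *pku70+* libraries and 32.0, 36.3, 32.2 and 27.7 in *pku70-d* (log2 -2.62, SE 0.13). The libraries were chosen as ones that show this deletion, so its value is not an independent result. This window reaches past the gene on both sides.

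The level difference followed base composition. Across windows its correlation with GC content was 0.761 (n = 4188 windows of the same libraries, a description). Windows were split into 5 groups by GC. In the group with the least (27.3% to 34.1%), 17 were called higher and 610 lower, with a median log2 of -0.23. In the group with the most (38.0% to 48.8%), 607 were higher and 5 lower, with a median of 0.24. Within the libraries, counts correlated with GC at 0.410 to 0.582 in the 4 *pku70-d* libraries and at -0.0770 to -0.0374 in the 4 *pku70+* libraries, without overlap. When a GC curve was removed from each library, 1020 of 4188 windows were called (24.4%), 541 higher (12.9%) and 479 lower (11.4%), and 720 of these were among the first 2211, 684 with the same sign. In the *rnh201-d* libraries the correlation was 0.0779 to 0.189 in those labelled *pku70-d* and -0.0238 to 0.0161 in *pku70+*. Loss of *pku70* and the preparation of the libraries cannot be told apart here.

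By distance, levels 20 to 50 kb from the ends of I and II were lower in *pku70-d* in all 4 pairs of libraries, with log2 differences of -0.07 and -0.07 (Pol δ and Pol ε, barrier off) and -0.05 and -0.16 (barrier on). Their mean was -0.09 ± 0.05 (SD, n = 4, exact sign-flip p = 0.125, the smallest 4 pairs allow). At 50 to 100 kb the mean was -0.08 ± 0.02 and at 100 to 200 kb 0.08 ± 0.03. These stretches differ in GC content, which was 32.7% at 20 to 50 kb and 35.8% at 100 to 200 kb. Against the counts expected from GC content, the direction turned: the mean was 0.18 ± 0.11 at 20 to 50 kb and 0.14 ± 0.07 at 50 to 100 kb, above 0 in all 4 pairs of libraries (SD, n = 4, exact sign-flip p = 0.125). At 100 to 200 kb it was 0.09 ± 0.03, also above 0 in all 4 pairs (exact sign-flip p = 0.125), and in the following class, which starts at 200 kb, 0.02 ± 0.04. With the GC curve removed, 23 of 40 windows at 20 to 50 kb were called higher and 1 lower, 25 and 1 of 66 at 50 to 100 kb, and 41 and 7 of 134 at 100 to 200 kb, against 232 and 238 of 2041 beyond 1000 kb. Pol δ lay above Pol ε in these values: at 0 to 10 kb the GC-adjusted differences were 0.31 and 0.53 for Pol δ and 0.11 and 0.00 for Pol ε (barrier off and on).

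**Figure D3:**
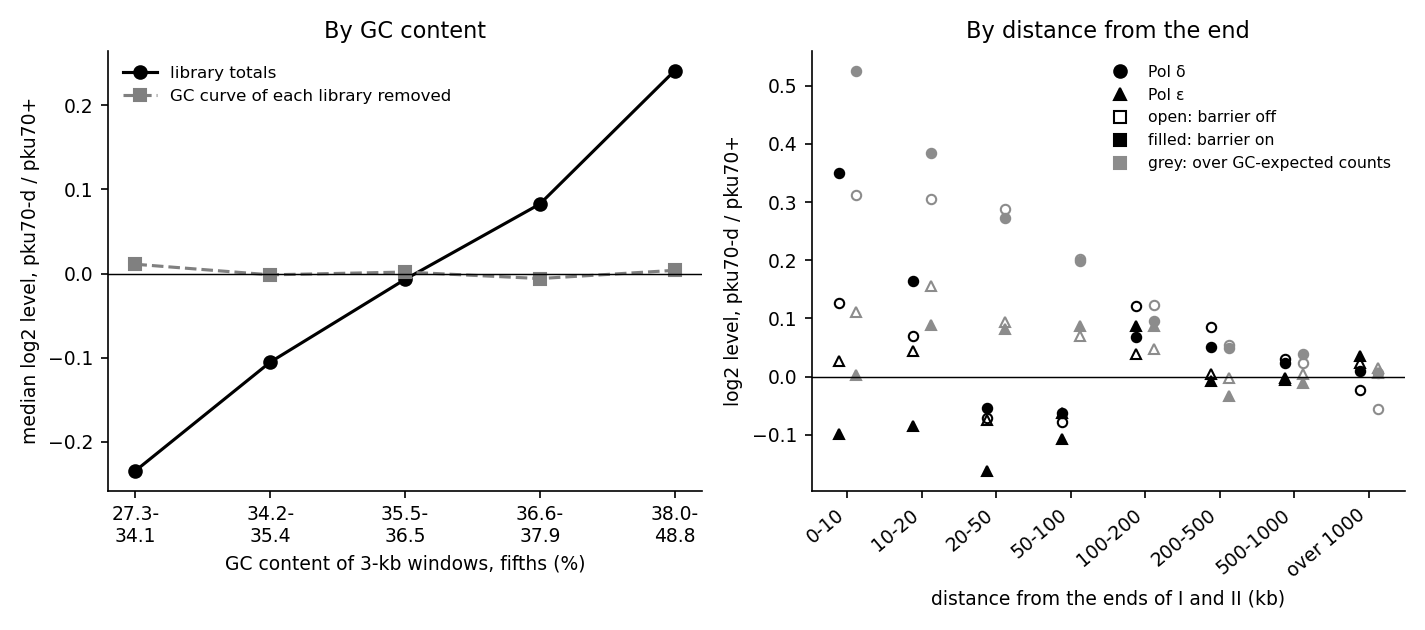
Left, median log2 of the count level in *pku70-d* over *pku70+* (*y* axis) in 5 equal groups of 3-kb windows by GC content in percent, as counted and with a GC curve removed from each library. Right, the log2 level by distance from the ends of chromosomes I and II in kb for each pair of libraries (circles Pol δ, triangles Pol ε, open barrier off, filled barrier on). The mean at 20 to 50 kb is -0.09 from library totals (black) and 0.18 over GC-expected counts (grey).

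On chromosome III the level at 0 to 10 kb was lower in *pku70-d* in the Pol ε libraries and near that of *pku70+* in the Pol δ libraries. The log2 differences were -0.55 and -0.78 for Pol ε and 0.08 and -0.09 for Pol δ (mean -0.34 ± 0.40, SD, n = 4, exact sign-flip p = 0.25). This stretch is annotated with ribosomal RNA genes and 95.1% of its words are repeated, so its level adds up reads of the whole array. The centromeres were taken as the longest stretch without a protein-coding gene on each chromosome, and their counts read against 27.5% of all windows called lower. Of 12 windows in that of I, 7 were called lower and 0 higher, with a median log2 of -0.33. In that of II, 10 of 16 were lower, with a median of -0.38, and in that of III 9 of 25 were lower, with a median of -0.04. With GC removed the medians were 0.09, 0.09 and 0.17. Summed over each whole stretch, rightward forks were between 48.6% and 49.7% in all 4 pairs. Such a sum pools forks of both directions, so it cannot show a shift within a stretch.

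The 2 windows with the lowest adjusted p among those that rose lay side by side in *SPBPJ4664.02*, a glycoprotein gene 690 kb from the left end of II, which holds a tandem repeat. A 30-base piece of the repeat is shown because it lies under the first of these windows and is repeated there. Window positions are those of the files, and this piece was read from the reference. It starts at chromosome II 690044 and ends at 690073 of the RefSeq reference (build ASM294v3, plus strand), and occurs 70 times in the gene (687716 to 699886) and nowhere else in the reference:
SPBPJ4664.02 repeat piece: tccacaccaattactagttcaactgttgtg
Shifted by 72 bases, the sequence under these windows matched itself at 90.7% of positions. The first window held 89.8, 146, 135 and 136 CPM in *pku70+* (Pol δ and Pol ε off, then on) and 192, 353, 197 and 395 in *pku70-d*. Every *pku70-d* value lies above every *pku70+* value, but the window was picked for its low adjusted p, so this order is no further support. How many of all windows show such an order was not counted. The difference was 1.08 on the log2 scale (SE 0.07, adjusted p = 4.0e-08), and 0.98 with GC removed (SE 0.07, adjusted p = 2.1e-04). In the second window it was 1.10 and 0.99.

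Over the whole gene the ratio of *pku70-d* to *pku70+* was 1.63 and 1.36 in Pol δ and 1.956 and 2.24 in Pol ε (barrier off and on). The mean over the 12 kb on each side gave 1.04 to 1.11, but single flanking bins differed more, both ways. In Pol δ with the barrier off, the bin at -5.966 kb held 78.7 CPM in *pku70-d* against 24.6 in *pku70+*. The bin at -1.466 kb held 9.87 against 20.2. The rise is thus not confined to the gene. A single bin 0.934 kb from the gene start reached 176 and 219.8 CPM in the *pku70-d* Pol ε libraries, against 43.4 and 50.2 in *pku70+*. In the *rnh201-d* libraries, whose counts show no deletion, the 2 windows were also higher in those labelled *pku70-d* (log2 0.94 and 0.78). The number of repeat units in each strain is not known from these counts, and its part in the difference was not tested.

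**Figure D4:**
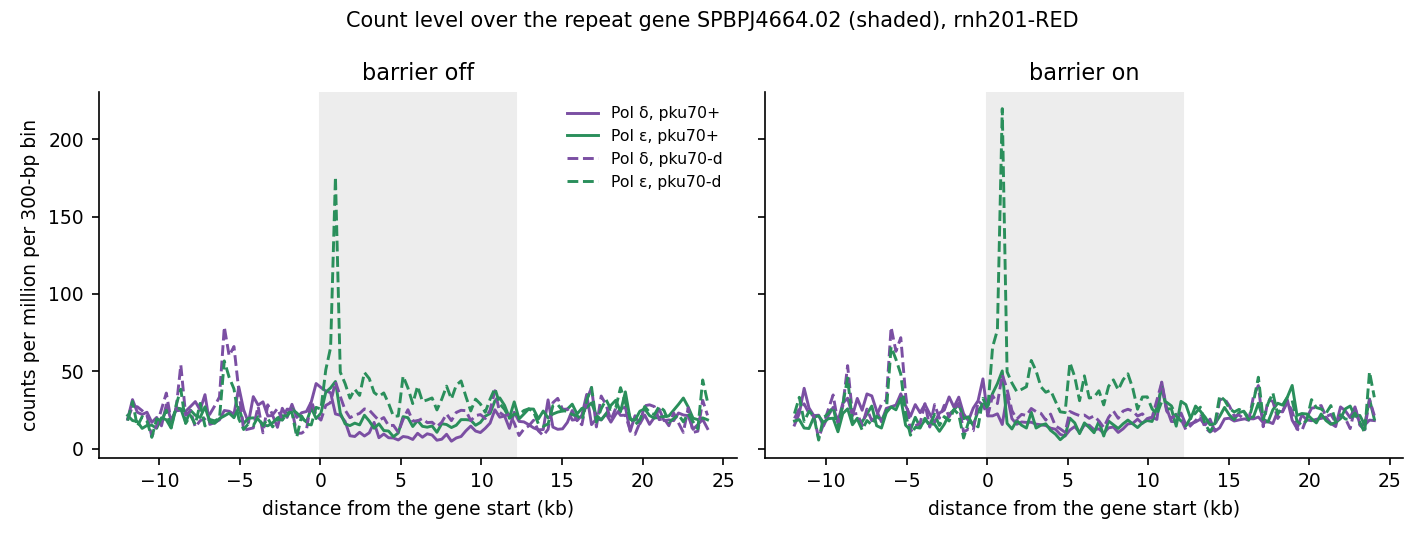
CPM per 300-bp bin along *SPBPJ4664.02* (shaded) and 12 kb on each side, against the distance from the gene start in kb, with the barrier off (left) and on (right). Solid lines are *pku70+* and dashed lines *pku70-d*, Pol δ purple and Pol ε green. The dashed line lies above the solid one of the same polymerase in 36 (Pol δ) and 37 (Pol ε) of the 41 bins of the gene, with a peak of 176 and 219.8 in Pol ε at 0.934 kb.

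The other named windows shrank with GC removed. The rises over *SPAPB2C8.01* (a glycoprotein gene, log2 0.75), *pfl5* (a flocculin-like glycoprotein, 0.85) and *gsf2* (a flocculation protein, 0.81), at 43.4% to 45.5% GC, came to 0.13, 0.22 and 0.31. Of these, *SPAPB2C8.01* no longer passed the test (adjusted p = 0.061). Among the windows that fell, 2 lie in the centromeric stretch of III at 27.3% and 29.1% GC (log2 -0.997 and -0.813, then -0.22 and -0.21 with GC removed). The others were *abo2* with *nrk1* (a histone chaperone ATPase and a nicotinamide riboside kinase, -0.75, then -0.30), *SPBC1348.12* with *ght7* (-1.07, then -0.54) and *bgs4* (a glucan synthase of the cell wall, -0.79, then -0.60). All 5 still passed with GC removed, at adjusted p between 8.22e-04 and 0.0124 (edgeR).

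At the *RTS1* construct on chromosome II, the question was whether loss of *pku70* alters restart. In the files' construct coordinates, the window between *RTS1* and the rRFB (the 10 rDNA fork barriers) runs from 855301 to 864600 (31 bins), that left of *RTS1* from 841501 to 850800 and that beyond the rRFB from 867001 to 879300. The left window ends within *clr6*, a histone deacetylase gene. Usage intervals are 95% Wilson and those of differences normal approximations, and both cover counting error only. The Watson strand shows the polymerase switch. There, in the middle window, Pol ε usage with the barrier on was 21.5% (20.1 to 22.96) in *pku70+* and 23.8% (23.2 to 24.5) in *pku70-d*. With the barrier off it was 91.2% (90.3 to 92.0) and 93.0% (92.4 to 93.6). The fall with the barrier was 69.6 and 69.2 points, a difference of 0.45 points (-1.43 to 2.32). Scaled to a common spread, barrier-off usage was 97.0% in *pku70+*, above its unscaled 91.2%, and 91.0% in *pku70-d*. The barrier-off difference thus turned from 1.86 to -6.06 points through the scaling. The barrier-on difference became 0.86, so only the barrier-on value kept its sign. With scaling, the change with the barrier differed by 6.92 points in place of 0.45. It differed by 4.39 points (2.90 to 5.88) in the *rnh201-d* libraries. In 1343 windows of the same length elsewhere, 951 and 595 differed between the strains at least as far as 1.86 points (off) and 2.31 points (on). The midpoint of the switch to Pol δ with the barrier on lay at -2.31 kb from the right edge of the construct in *pku70+* and at -2.29 kb in *pku70-d*. In *pku70+* the profile crossed this midpoint 2 times, and the crossing nearest the middle of the construct was taken. The bins span 300 bp and were smoothed over 3, so a smaller shift could not be resolved.

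On the Crick strand the pairs differed, in opposite directions with the barrier off and on. The barrier-off difference was already present just left of *RTS1*. Between *RTS1* and the rRFB, Pol ε usage with the barrier off was 23.2% (22.02 to 24.4) in *pku70+* and 8.50% (8.06 to 8.95) in *pku70-d*, a difference of -14.7 points (-15.9 to -13.4). With the barrier on it was 18.8% (17.1 to 20.5) and 28.4% (27.6 to 29.3), a difference of 9.66 points (7.73 to 11.6). Pol ε usage on this strand reports forks that arrive from the right. The change with the barrier was -4.42 points in *pku70+* and 19.9 in *pku70-d*, so it differed by 24.3 points (22.04 to 26.6). Of the 1343 other windows, 6 differed as far with the barrier off, 7 with it on and 1 in the change. The barrier-off value rests on the *pku70+* Pol ε library that stands apart. At -5.46 kb from the right edge of the construct, left of *RTS1*, smoothed usage was already 19.0% in *pku70+* and 6.29% in *pku70-d*. With the barrier on it was 5.16% and 6.29% there. The barrier-off difference is thus not confined to the stretch past *RTS1*, and the change with the barrier carries it. Scaled to a common spread, the differences between *RTS1* and the rRFB were -8.88 and 7.99 points, and the change differed by 16.9. Within the *pku70-d* strains alone, which do not use that library, usage was 19.9 points higher with the barrier on (19.0 to 20.9). In the *rnh201-d* libraries the same differences were 6.16 points (barrier off) and 9.37 (barrier on). The barrier-on difference was of similar size in both *rnh201* backgrounds. The barrier-off difference has the opposite sign in *rnh201-d*, between libraries of which those of *pku70+* are not labelled with the rDNA repeats. The paper describes a slight shift of termination without Pku70 in both backgrounds. The *rnh201-d* counts show no deletion of *pku70*, and whether the gene is disrupted in them was not tested.

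**Figure D5:**
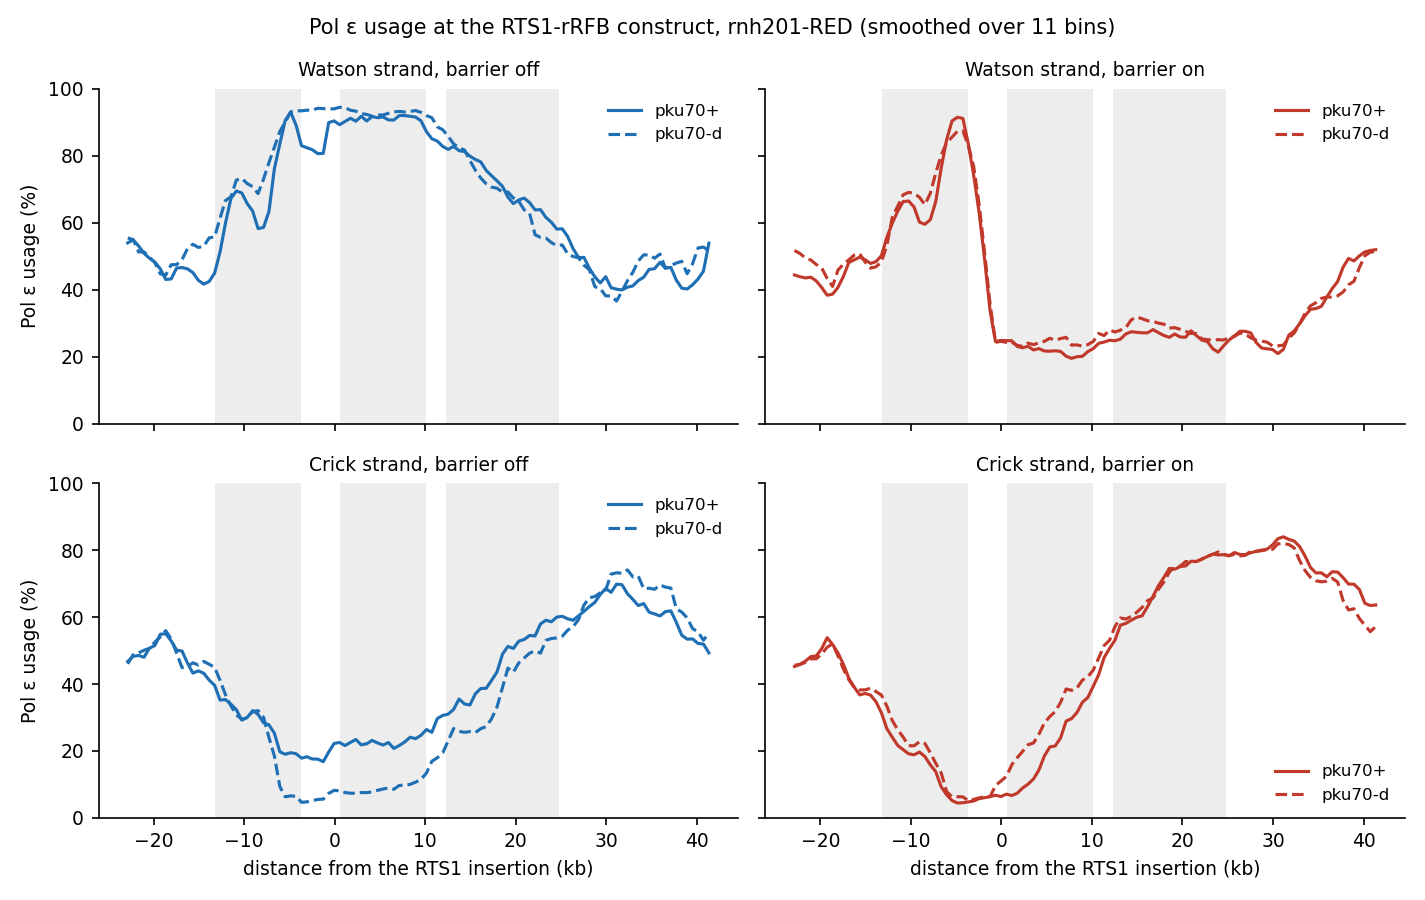
Pol ε usage in percent (*y* axis) on the Watson (top) and Crick (bottom) strands against the distance from the *RTS1* insertion in kb, with the barrier off (left) and on (right), smoothed over 11 bins, for *pku70+* (solid) and *pku70-d* (dashed). Shading marks the 3 windows. In the middle window on the Crick strand *pku70-d* lies lower with the barrier off (8.50% against 23.2%) and higher with it on (28.4% against 18.8%). The barrier-off gap is also seen left of the construct, with 6.29% against 19.0% at -5.46 kb.

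In the window past the rRFB, Crick-strand usage of Pol ε was 46.7% in *pku70+* and 38.3% in *pku70-d* with the barrier off (difference -8.42, -9.998 to -6.84), and 71.1% and 71.2% with it on (0.18, -1.26 to 1.61). Termination, placed where this usage passes 50%, was measured from the left edge of the inserted rRFB. With the barrier off it lay 8.20 kb right of that edge in *pku70+* and 12.2 kb in *pku70-d*, a shift of 4.02 kb. Of 437 other termination zones, 6 shifted as far between the same pairs. With the barrier on it lay at 1.19 and 0.44 kb from that edge, a shift of -0.75 kb that 126 of 443 other zones matched. These barrier-on positions, 866411 and 865660, lie before the window past the rRFB, which starts at 867001. The *rnh201-d* shifts were 2.03 kb, which 44 of 442 zones matched, and -1.68 kb, which 41 of 491 matched. The barrier-off shift fell to 0.96 kb with smoothing over 5 bins and to 1.56 kb at a threshold of 40%. Over the whole window left of *RTS1*, Crick usage differed by -2.59 points (off) and 3.83 (on), and the first became 1.72 when scaled. Total levels at the construct did not move one way: between *RTS1* and the rRFB the log2 differences with the barrier on were -0.18 for Pol δ and 0.24 for Pol ε, and with it off 0.18 and -0.05.

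Origins were taken as the 570 places where the mean of the 4 pairs rose by at least 10 points in rightward forks. The height of these steps was lower in *pku70-d* at every distance with the barrier on, with mean differences of -1.82 points within 50 kb of an end (25 origins) and -3.91 beyond 1000 kb (298 origins). With the barrier off it was higher at every distance, by 2.17 and 4.11 points. Scaled to a common spread, all these differences were between -3.06 and -0.58 points, so the barrier-off direction turned. The steps at a site are not independent samples of a condition, and no test was made.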

How the data were processed

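The deposited counts are whole numbers of read ends per 300-bp bin and strand, which the authors made with Bowtie2 (version not given in the sources used here) and a custom script, on a genome carrying the construct. The members and lists were chosen with earlier results of these data known. Shares were computed from counts scaled to each library's total, and fork direction as the mean of the Pol ε share on Watson and the Pol δ share on Crick. Bins were summed into 3000-bp windows with a minimum count of 10 in every library and tested with edgeR 4.0.16 (TMM, quasi-likelihood, Benjamini-Hochberg, threshold 0.05) in R 4.3.3. The separate windows used for polymerase usage at the construct left out 600 bp beside insertions. The design held polymerase, barrier and *pku70*, and strand for direction. DESeq2 1.42.0 and limma 3.58.1 served alternatives. Distance classes were compared over pairs by exact two-sided sign-flip tests. The scripts were tested on simulated data. The GC curve (lowess, span 0.3), the scaling of pairs, the *rnh201-d* libraries alone and the single-copy bins were added after seeing the data. Windows were named by the rule of up to 5 called windows per test and direction with the lowest adjusted p, plus the targeted genes, the chromosome ends, the insertions, the mating-type locus and the centromeres. The subtelomeric windows past the limma test were named after their values were seen. Gene names come from RefSeq ASM294v3. File positions were matched to it by local shifts, since the build is not given in the sources used here. No column was unmapped, and libraries outside the 8 and their 8 *rnh201-d* counterparts were not used here. Depth limits each share's precision, and intervals cover counting error only, since PCR reads without molecular identifiers are not independent molecules.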

Additional observations from a re-analysis of the deposited data

Results flagged for a closer look

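At 10 to 20 kb from the ends of chromosome III, the mean difference between *pku70-d* and *pku70+* in forks moving towards the end was 8.46 points higher in the *rnh201-RED* pairs than in the *rnh201-d* pairs. All pairs of one allele moved one way and all of the other the opposite way, and this difference was not tested. In the reference, 95.8% of the 50-base words in this stretch occur more than once, so reads there cannot be placed with certainty.

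At the construct, the change in Pol ε usage when the barrier was turned on differed between *pku70-d* and *pku70+* with the signs of the barrier-off and barrier-on differences opposed. It differed by 6.42 points on the Crick strand left of *RTS1* (4.46 to 8.38) and by 24.3 points on the Crick strand between *RTS1* and the rRFB (22.04 to 26.6). Beyond the rRFB it differed by 5.36 points on the Watson strand (3.26 to 7.46) and by 8.60 points on the Crick strand (6.46 to 10.7). These 95% intervals cover counting error only, with 1 library per strain and polymerase. Scaled to a common spread of the pairs, the 4 values were 0.30, 16.9, 8.04 and 8.62 points. With the barrier off, smoothed Crick usage just left of *RTS1* was already 19.0% in *pku70+* and 6.29% in *pku70-d* (at -5.46 kb). The 24.3 points therefore carry a gap that is not confined to the stretch past *RTS1*.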

How the results depend on the processing

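The labels give no replicate numbers, so libraries could not be paired by replicate. The pairs in the sign-flip tests above are libraries matched by polymerase and barrier state. The count of level windows (2211) was 7757 in 900-bp windows, 50 with the barrier off, 1204 with it on, 1020 with the GC offset, 1217 in *rnh201-d* alone and 884 there with the GC offset, and 1255 to 2255 with 1 library left out. The Pol ε over Pol δ count (58) was 0 in 900-bp windows, 4 over 16 libraries, 273 in *rnh201-d* alone, 0 with the GC offset, 199 by DESeq2 and 0 to 606 with 1 library left out. The direction count (0) was 620 in *rnh201-d* alone, 137 by limma on scaled pairs, 121 by the same in *rnh201-d*, and 0 to 118 with 1 library left out, the highest being 118 and 82 without the *pku70-d* or *pku70+* barrier-on Pol ε library. The cause was not tested.

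Over all 6 ends, the log2 level at 0 to 10 kb (-0.22) was 0.10 on I and II and 0.24 there with GC. At 10 to 20 kb (-0.18) it was 0.05 on I and II and 0.23 with GC. At 20 to 50 kb (-0.10) it was 0.0052 by median bin, 0.15 with GC and 0.18 with GC on I and II. At 50 to 100 kb (-0.08) these were 0.027, 0.069 and 0.14. For forks towards the end, the 0 to 10 kb difference (5.62 points) was 0.762 without extreme bins, 1.89 on I and II, 1.12 there when scaled and -1.75 in *rnh201-d*. At 10 to 20 kb (3.54) it was -1.41 without extreme bins, -0.35 on I and II, -0.66 there when scaled and -3.58 in *rnh201-d*. At 20 to 50 kb (-1.001) it was -3.01 on I and II, -2.90 there when scaled and -3.63 there in single-copy bins. At 50 to 100 kb (-1.07) it was -0.948 without extreme bins, -1.28 when scaled, -1.33 on I and II, -1.70 there when scaled, -1.47 there in single-copy bins and -2.19 in *rnh201-d*.

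At the construct, the Crick barrier-off difference (-14.7) was -13.4 by median bin, and leaving out extreme bins left 0 of 31 bins and so no value. The barrier-off termination shift (4.02 kb) was 0.958 with 5 bins, 2.75 with 21 bins, 1.56 at 40% and 2.74 at 60%. The barrier-on shift (-0.75 kb) was -0.392, -1.32, -1.64 and -2.07. Single libraries, repeated sequence at the tips and unequal depth limit these comparisons.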
